A study of Mus musculus with 2 samples.

Results

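The 10 genes considered here encode heat shock chaperones, proteins that bind other proteins while they fold, refold or are taken apart. Hspa1a and Hspa1b encode the stress-inducible HSP70, and Hsph1 encodes HSP110, which releases nucleotide from HSP70. Dnajb1 and Dnaja1 encode HSP40 co-chaperones, which hand client proteins to HSP70. Hsp90aa1 and Hsp90ab1 encode the cytosolic HSP90 forms, Hspa8 encodes the constitutive HSP70, and Hspd1 and Hspe1 encode the mitochondrial chaperonin HSP60 and its lid HSP10. They were chosen by gene name and were read as 10 of the 27031 gene columns of the count table.

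Female C57BL/6 mice of 6 to 8 weeks received MC38 colorectal carcinoma cells under the skin, and vehicle (control) or telmisartan at 5 mg/kg into the stomach daily from implantation. Telmisartan blocks the angiotensin II type 1 receptor. Tumors were taken on day 13, pooled from 5 mice per group, digested at 37 °C for 60 min and sorted for live CD45+ cells. Both pools carried a Sample Tag, a barcoded antibody that records the group, and were captured together on BD Rhapsody, with 1 pool per group.

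Heat shock chaperone genes are switched on by heat shock factor 1 when unfolded protein builds up, and their RNA can also be raised by warming, dissociation of tissue, growth and cell division. The tissue was digested with warming in both groups, so RNA made in the mouse and RNA made during digestion cannot be told apart. Treatment began at implantation, so an early and a late action of telmisartan cannot be told apart either. With 1 pool per group no difference was tested, and the 95% intervals given below cover counting error only.

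After quality limits and doublet removal, 4542 control cells with 41768680 UMIs (unique molecular identifiers, 1 per captured RNA molecule) and 4427 telmisartan cells with 30939085 UMIs were kept. The median control cell held 8720.5 UMIs and 7.10% mitochondrial UMIs, and the median telmisartan cell 6365 UMIs and 7.99%. Levels are therefore given as CPM, the UMIs of a gene per 1000000 UMIs of the summed cells. Ratios are log2 of telmisartan over control, and a gene was counted as past the threshold when its levels differed by more than 1.5-fold.

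Clusters were named by fixed marker genes, with the 10 chaperone genes left out of the genes that defined them. The macrophage-like class held 4052 control and 3992 telmisartan cells, the dendritic-like class 369 and 298, the T-like class 74 and 113, and the neutrophil-like class 47 and 24. The T marker genes together stood at 4223 and 5844 CPM in T-like cells, against 14.5 and 17.9 CPM in macrophage-like cells. Macrophage marker genes stood at 18493 and 18803 CPM in macrophage-like cells, 3906 and 3151 CPM in dendritic-like cells, and 6637 and 4045 CPM in T-like cells. How much of the chaperone signal in the smaller classes came from RNA of macrophages was not tested.

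In macrophage-like cells, the inducible HSP70 gene Hspa1a stood at 221 CPM in control and 215 CPM in telmisartan cells, a log2 ratio of -0.04 (95% interval -0.09 to 0.01). Hspa1b stood at 228 and 169 CPM, a log2 ratio of -0.43 (-0.48 to -0.38). The 2 together, whose sum is firmer than the division between them, stood at 449 and 384 CPM (log2 -0.22, -0.26 to -0.19). The Hspa1a ratio was 0.12 when UMIs were scaled within each cell before averaging, 0.057 when cells were thinned to equal depth, and 0.012 among cells with at most 10% mitochondrial UMIs. Without the macrophage-like clusters of low depth, Hspa1a and Hspa1b stood at log2 ratios of -0.28 and -0.67, and Hspa1b was past 1.5-fold. Those clusters held most cells of macrophage subclusters 3 and 4, described below.

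Of the genes that work with HSP70, Hsph1 stood at 85.1 CPM in control and 69.4 CPM in telmisartan macrophage-like cells (log2 -0.29, -0.38 to -0.21). Dnajb1 stood at 42 and 50.2 CPM (log2 0.26, 0.15 to 0.36) and Dnaja1 at 228 and 224 CPM (log2 -0.02, -0.07 to 0.02). Hsph1 was lower and Dnajb1 higher with telmisartan, and with UMIs per cell left unscaled, which lowers all ratios alike, Dnajb1 stood at log2 -0.15. The sign of Dnaja1 turned under 3 of 15 other settings.

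Of the cytosolic HSP90 and constitutive HSP70 genes, Hsp90aa1 stood at 484 CPM in control and 536 CPM in telmisartan macrophage-like cells (log2 0.15, 0.11 to 0.18). Hsp90ab1 stood at 1715 and 1513 CPM (log2 -0.18, -0.20 to -0.16). Hspa8 stood at 1740.0 and 1904 CPM (log2 0.13, 0.11 to 0.15). Hsp90ab1 was lower, and Hsp90aa1 and Hspa8 were higher except with UMIs per cell left unscaled (log2 -0.26 and -0.28), a setting that moved the median of all genes from -0.04 to -0.45.

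Both mitochondrial genes were lower with telmisartan in macrophage-like cells. Hspd1 stood at 161 and 112 CPM (log2 -0.53, -0.59 to -0.46) and Hspe1 at 287 and 228 CPM (log2 -0.33, -0.38 to -0.29). Hspd1 had the lowest ratio of the 10 genes in this class under the scaling used. All 15 other settings kept both ratios below 0.

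The 10 genes together stood at 5191 CPM in control and 5021 CPM in telmisartan macrophage-like cells, a log2 ratio of -0.05 (-0.06 to -0.04). This small difference turned to 0.010 when each macrophage subcluster was given the same weight in both groups. In this class 0 of the 10 genes were more than 1.5-fold higher and 0 were more than 1.5-fold lower. Of the 11075 genes with at least 100 UMIs in the class, 4.74% were more than 1.5-fold higher and 2.26% more than 1.5-fold lower. The median log2 ratio was -0.11 over the 10 genes and -0.04 over all genes tested.

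**Figure D1:**
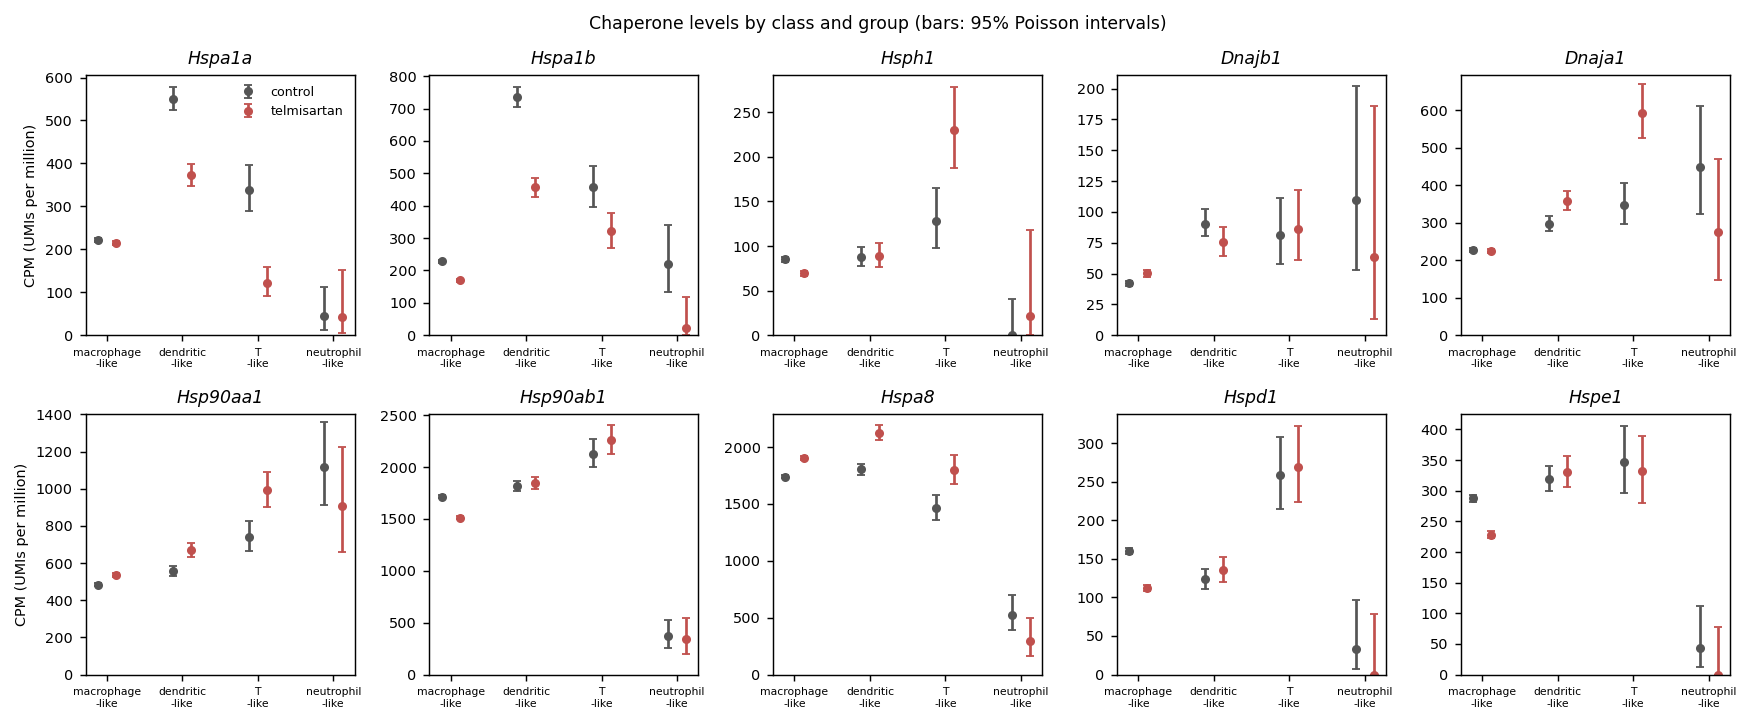
CPM of each chaperone gene (vertical axis, from 0) in control and telmisartan cells of the 4 classes, with 95% Poisson intervals. Hspa1b in dendritic-like cells stood at 735 CPM in control and 457 CPM in telmisartan cells, and Hspd1 in macrophage-like cells at 161 and 112 CPM.

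Dendritic-like cells held the inducible HSP70 genes at higher levels than macrophage-like cells did in both groups. Hspa1a stood at 551 CPM in control and 372 CPM in telmisartan dendritic-like cells (log2 -0.57, -0.69 to -0.44), and Hspa1b at 735 and 457 CPM (log2 -0.69, -0.80 to -0.58). The pair was lower with telmisartan in each of the 3 dendritic-like clusters. It stood at 1052 and 644 CPM in cluster 7, which Cd209a led, at 1487 and 887 CPM in cluster 10, where Ccr7 was among the leading genes, and at 2058 and 1385 CPM in cluster 11, where Clec9a was among them. These cluster genes were chosen after their values were seen.

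The other genes of the set differed less over the dendritic-like class as a whole. Dnaja1 stood at 298 and 359 CPM (log2 0.27), Hsp90aa1 at 559 and 670.2 CPM (log2 0.26), Hspa8 at 1806 and 2127 CPM (log2 0.24) and Hsp90ab1 at 1814 and 1843 CPM (log2 0.02). Hsph1 stood at 87.5 and 89.2 CPM, Dnajb1 at 90.6 and 75.2 CPM, Hspd1 at 124 and 135 CPM and Hspe1 at 319.7 and 330.3 CPM, each with an interval that included 0. By cluster, Dnajb1 stood at 145.6 and 53.1 CPM in cluster 11, from 76 and 23 UMIs (log2 -1.46, -2.20 to -0.77), while its intervals in clusters 7 and 10 included 0. In cluster 11, Hspd1 stood at a log2 ratio of 0.44 (0.01 to 0.87), Hsp90ab1 at 0.22 (0.09 to 0.35) and Dnaja1 at -0.01 (-0.31 to 0.29), and in cluster 7 they stood at 0.02 (-0.27 to 0.32), -0.07 (-0.14 to 0.00) and 0.36 (0.19 to 0.54). Against 0 genes of the set more than 1.5-fold higher, 3.72% of 5861 genes tested were. Against 1 more than 1.5-fold lower, Hspa1b, 3.36% were. Tumor epithelial markers stood at 42.2 and 17.8 CPM in these cells, and whether they bear on the HSP70 ratios was not tested.

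In T-like cells, Hspa1a stood at 339 CPM in control and 122 CPM in telmisartan cells (log2 -1.48, -1.95 to -1.03), from 159 and 55 UMIs. Hspa1b stood at 456 and 320.4 CPM (log2 -0.51, -0.82 to -0.20). Hsph1 stood at 128 and 229.8 CPM (log2 0.84, 0.37 to 1.33) and Dnaja1 at 348 and 594 CPM (log2 0.77, 0.49 to 1.06). The class joins 2 clusters, 9 (52 control and 92 telmisartan cells) and 13 (22 and 21 cells). Hspa1a stood at 453 and 126 CPM in cluster 9 (log2 -1.85, -2.38 to -1.35), and at 65.4 and 110.2 CPM in cluster 13, from 9 and 13 UMIs, with an interval that included 0. Hspa1b stood at a log2 ratio of -0.61 (-0.94 to -0.29) in cluster 9. In cluster 13 it stood at 0.03 (-1.12 to 1.16), from 16 and 14 UMIs. Hsph1 stood at 160.0 and 200.2 CPM in cluster 9, with an interval that included 0, and at 50.8 and 314 CPM in cluster 13, from 7 and 37 UMIs (log2 2.63, 1.44 to 4.04). Dnaja1 was higher in both, at log2 ratios of 0.75 and 0.82. After thinning to 500 UMIs, Hspa1a was seen in 8.11% of control and 7.96% of telmisartan T-like cells, and Hspa1b in 10.8% and 14.2%. Without thinning, the shares were 32.4% and 22.1% for Hspa1a and 27.0% and 28.3% for Hspa1b. How far these ratios hold under other scalings was not tested.

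Among the other genes in T-like cells, Hsp90aa1 stood at 742 and 992 CPM (log2 0.42), Hspa8 at 1463 and 1798 CPM (log2 0.30) and Hsp90ab1 at 2130.5 and 2260.2 CPM (log2 0.09). Hspd1 stood at 258 and 269.5 CPM and Hspe1 at 348 and 331 CPM, with intervals that included 0, and Dnajb1, with 38 and 39 UMIs, was below the minimum of 100. By cluster, with the difference between clusters not tested, Hspd1 stood at log2 ratios of -0.31 (-0.75 to 0.12) in cluster 9 and 1.26 (0.43 to 2.13) in cluster 13, Hspe1 at -0.48 (-0.88 to -0.08) and 0.91 (0.29 to 1.55), and Hsp90aa1 at 0.12 (-0.12 to 0.36) and 1.31 (0.87 to 1.76). Hsp90ab1 stood at -0.16 (-0.30 to -0.01) and 0.76 (0.51 to 1.02), and Hspa8 at 0.20 (0.03 to 0.38) and 0.54 (0.27 to 0.83). Of the 9 genes tested in the class, 2 were more than 1.5-fold higher, Hsph1 and Dnaja1, as were 9.63% of 1661 genes tested. Only Hspa1a was more than 1.5-fold lower, as were 7.89%. The 10 genes together stood at 4400 and 7746 CPM in cluster 13, where Icos, Il2ra and Ctla4 were among the leading genes, and at 7080.4 and 6742 CPM in cluster 9, led by granzyme genes. These cluster genes were chosen after their values were seen.

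Neutrophil-like cells held the least of the set, with 266 control and 93 telmisartan UMIs of the 10 genes (2920.2 and 1968 CPM, log2 -0.57, -0.93 to -0.22). Hspa1b stood at 219.6 and 21.2 CPM, from 20 UMIs that all lay in 1 of 47 control cells and 1 UMI in 1 of 24 telmisartan cells. Hsp90aa1, at 1119.8 and 909.7 CPM, was the only gene of the set with at least 100 UMIs there. Hspd1 and Hspe1 had 3 and 4 UMIs in control cells and 0 in telmisartan cells. Differences in the other genes of the set were not detectable at this depth.

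Neutrophil-like cells had median depths of 1714 and 1796 UMIs, and their shares were taken after thinning to 500 UMIs, as for T-like cells. Hspa8 was seen in 17.0% of control and 20.8% of telmisartan cells. Without thinning, Hspa1a was seen in 2 cells of each group (4.26% and 8.33%), Hspa1b in 1 cell of each (2.13% and 4.17%), Hspa8 in 22 and 12 cells, and Hspd1 in 3 control cells (6.38%).

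Macrophage-like cells were divided again into 7 subclusters, numbered by size and described by leading genes chosen after their values were seen. Subcluster 1 (2632 cells) was led by Dcstamp, subcluster 2 (1582 cells) by Gas6, subcluster 3 (1271 cells) by the interferon-response gene Ifit3, and subcluster 4 (942 cells) by Serpinb2, Il6, Ptges and Hmox1. Subcluster 5 (711 cells) was led by the mitosis gene Hmmr, subcluster 6 (663 cells) by Serpina3g, and subcluster 7 (243 cells) by Ung and genes of the Mcm DNA replication helicase. The groups were spread unevenly over them. Control and telmisartan cells numbered 1466 and 1166 in subcluster 1, 748 and 834 in 2, and 416 and 855 in 3. They numbered 410 and 532 in subcluster 4, 374 and 337 in 5, 476 and 187 in 6, and 162 and 81 in 7.

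The HSP70 pair Hspa1a and Hspa1b went opposite ways in these subclusters. In subcluster 4 it stood at 436 CPM in 410 control cells and 1113 CPM in 532 telmisartan cells, a log2 ratio of 1.35 (1.24 to 1.46). In the other 6 the pair was lower with telmisartan, at log2 ratios of -0.59 in subcluster 1 (299 and 199 CPM), -0.43 in subcluster 2 (559 and 415 CPM) and -0.85 in subcluster 3 (629.6 and 349.9 CPM). The ratio was -0.63 in subcluster 5 (666 and 429.6 CPM), -0.27 in subcluster 6 (407 and 337 CPM) and -2.0 in subcluster 7 (513 and 129 CPM, from 1217 and 131 UMIs). All 7 intervals excluded 0, but they take each UMI as a separate draw, and up to 352 UMIs of the pair lay in 1 cell. In control cells the pair was lower in subclusters 1 and 6 than in subcluster 4, and in telmisartan cells it was highest in subcluster 4.

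The ratio in subcluster 4 was above 1.5-fold under each of 11 other settings, all chosen after seeing the data, and ranged from 0.92 to 1.59. The ratio in subcluster 1 was 0.080 when the chaperone genes were allowed to define the subclusters, a division that shared 60.8% of its cells. In that division the matches of subclusters 6 and 7 were 1 subcluster, with a ratio of -0.48. A few cells held many of the UMIs in subcluster 4: the 5 highest cells held 49.9% of the pair's UMIs in control and 40.5% in telmisartan, and the ratio without them was 1.59.

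**Figure D2:**
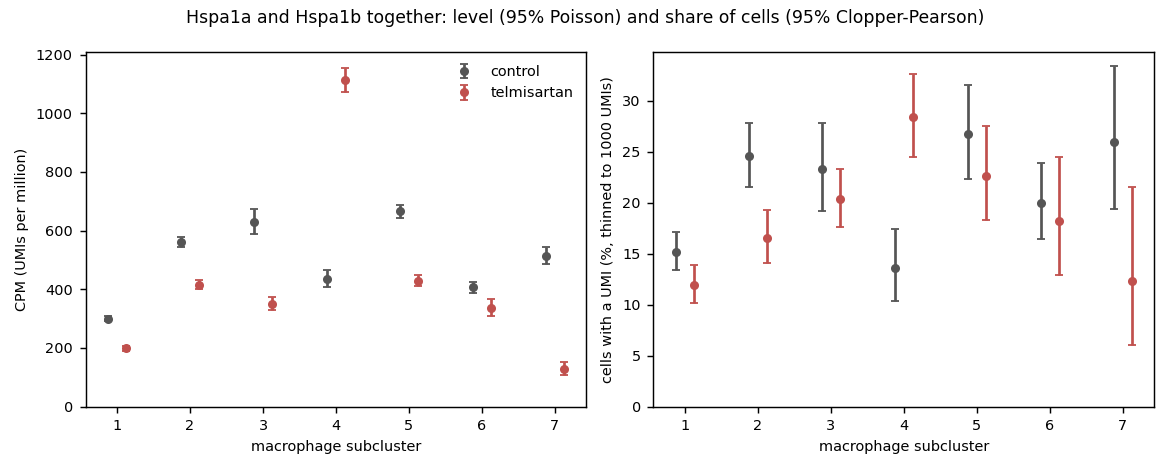
Left, CPM of Hspa1a and Hspa1b together in each macrophage subcluster with 95% Poisson intervals; right, percent of cells with a UMI of either gene after thinning to 1000 UMIs, with 95% Clopper-Pearson intervals. In subcluster 4 the telmisartan level of 1113 CPM stood above the control level of 436 CPM, and in the other 6 the telmisartan level stood below.

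More cells of subcluster 4 held the pair with telmisartan. After each cell was thinned to 1000 UMIs, 13.6% of 390 control cells (10.3% to 17.4%) and 28.4% of 500 telmisartan cells (24.5% to 32.6%) had a UMI of Hspa1a or Hspa1b. Without thinning, the shares were 29.0% and 49.6%, and 20 and 32 cells were too shallow to be thinned. Their median depths were 4092 and 3737.5 UMIs, and their median mitochondrial shares 5.71% and 5.36%.

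All 10 chaperone genes were higher with telmisartan in subcluster 4, with a median log2 ratio of 0.45 against -0.01 over all genes tested. Hspa1a stood at 232 and 629 CPM (log2 1.44, 1.29 to 1.59), Hspa1b at 204 and 485 CPM (log2 1.25, 1.09 to 1.41), Dnaja1 at 155 and 245 CPM (log2 0.66, 0.46 to 0.86) and Dnajb1 at 46.7 and 72.7 CPM (log2 0.64, 0.28 to 1.01). These 4 were more than 1.5-fold higher, as were 7.32% of 5179 genes tested, and 0 were more than 1.5-fold lower, against 3.22%. Hsph1 (116 and 162 CPM), Hsp90aa1 (605 and 808 CPM), Hspa8 (1165 and 1554 CPM) and Hsp90ab1 (1235 and 1351 CPM) were higher by less, at log2 ratios of 0.48, 0.42, 0.42 and 0.13. The intervals of Hspd1 (82.9 and 96.5 CPM) and Hspe1 (146 and 155 CPM) included 0. Macrophage markers in this subcluster stood at 11458 CPM in control and 8840 CPM in telmisartan cells, and whether that bears on the chaperone ratios was not tested.

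In each of the other 6 subclusters, 1 to 3 genes of the set passed 1.5-fold. In subcluster 1, 0 were higher (4.85% of all genes tested) and 1 was lower, Hspa1b (3.14%). In subcluster 2, 0 were higher (4.25%) and 3 were lower, Hspa1b, Hsph1 and Hspd1 (4.33%). In subcluster 3, 0 were higher (5.81%) and 2 were lower, Hspa1a and Hspa1b (4.77%). In subcluster 5, 0 were higher (2.76%) and 1 was lower, Hspa1b (2.81%). In subcluster 6, 1 was higher, Dnajb1 (4.37%), and 0 were lower (4.73%). In subcluster 7, 0 were higher (5.35%) and 2 were lower, Hspa1a and Hspa1b (4.63%).

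**Figure D3:**
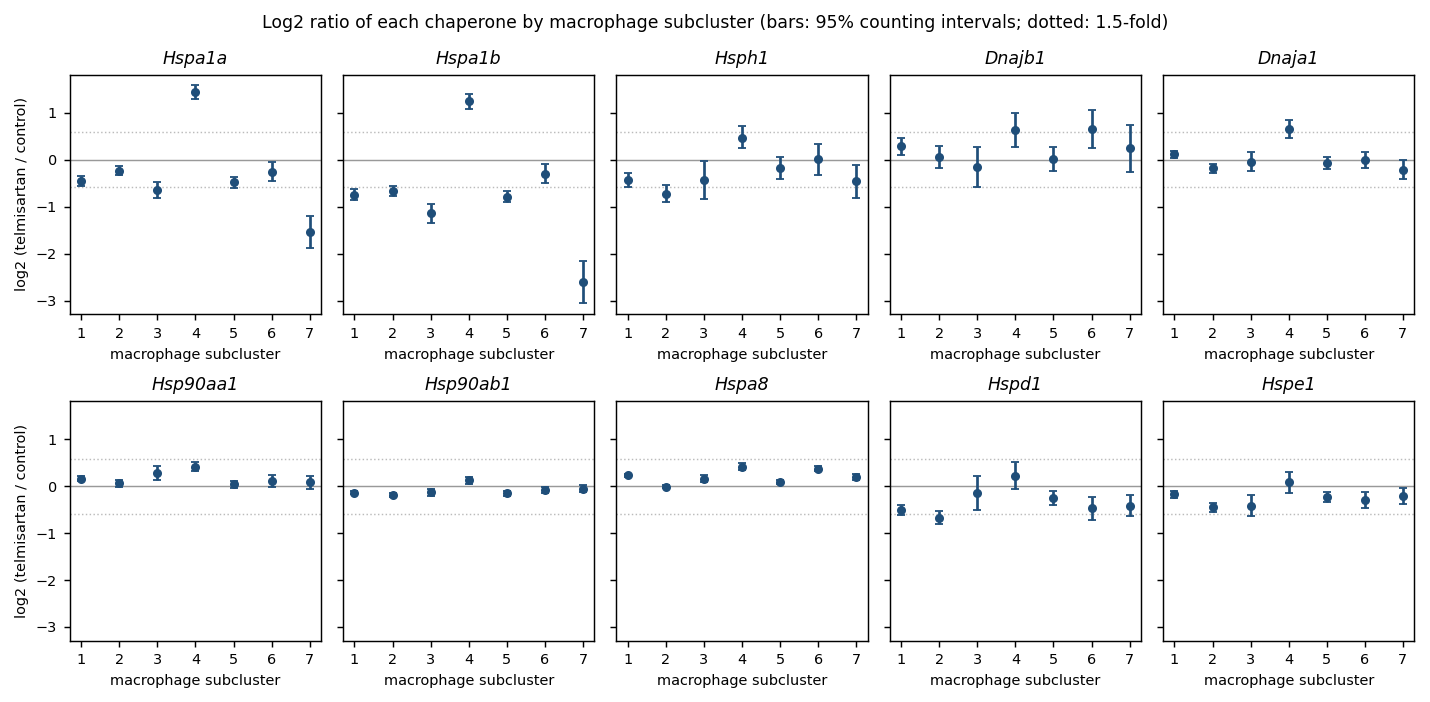
Log2 ratio of telmisartan over control for each chaperone gene (vertical axis) in the 7 macrophage subclusters, with 95% counting intervals and dotted lines at 1.5-fold. Hspa1a stood at 1.44 in subcluster 4 and -1.53 in subcluster 7, and Hspa8 lay between -0.01 and 0.42 in all 7.

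The HSP90 genes, Hspa8 and the mitochondrial genes followed other orders over the subclusters. Hspa8 was highest in subcluster 7, at 2517 CPM over both groups, and lowest in subcluster 4, at 1376 CPM, and these were its ends in each group. Hsp90ab1 was also highest in subcluster 7 in both groups (2259 CPM in control and 2184 CPM in telmisartan cells), while its lowest level was in subcluster 4 in control (1235 CPM) and in subcluster 3 with telmisartan (1263 CPM). Hsp90aa1 was highest in subcluster 7 in control (646 CPM) and in subcluster 4 with telmisartan (808 CPM). Its ratio was above 0 in all 7 subclusters, with an interval above 0 in 3. The pair Hspd1 and Hspe1 was highest in subcluster 7 in both groups (710 and 583 CPM), and lowest in subcluster 4 in control (229 CPM) and in subcluster 3 with telmisartan (211 CPM). The mitochondrial pair was lower with telmisartan in 6 of 7 subclusters, and in subcluster 4 it stood at 229 and 251 CPM, with an interval that included 0. Subclusters 5 and 7, led by mitosis and DNA replication genes, also had the deepest cells, with medians of 13286 and 13809 UMIs.

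Shares of macrophage-like cells with a UMI were compared after thinning to 1000 UMIs, which left out 45 control and 72 telmisartan cells. Hspa1a was seen in 14.9% of control and 13.2% of telmisartan cells, Hspa1b in 12.5% and 8.09%, Hspd1 in 12.3% and 8.85%, and Hspa8 in 72.9% and 77.8%. Without thinning, the shares were 39.2% and 35.1% for Hspa1a, 31.5% and 24.6% for Hspa1b, 54.9% and 38.3% for Hspd1, and 96.1% and 95.7% for Hspa8. Median depths of these cells were 9001.5 and 6474.5 UMIs. Cells with at least 10 UMIs of Hspa1a, Hspa1b, Hsph1 and Dnajb1 among 1000 were rare in both groups, at 20 control cells (0.499%) and 25 telmisartan cells (0.638%).

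The chaperone genes were set beside lists of related genes. Of 23 other HSF1 target and co-chaperone genes tested in macrophage-like cells, 3 were more than 1.5-fold higher and 0 lower, against 4.74% and 2.26% of all 11075 genes tested, with a median log2 ratio of -0.03. The 3 were the small heat shock protein gene Hspb1 (6.27 and 17.7 CPM, log2 1.5), the co-chaperone gene Bag3 (43.9 and 66.7 CPM, log2 0.60) and the HSP90 co-chaperone gene Unc45a (12.2 and 18.3 CPM, log2 0.59). The heat shock factor genes Hsf1 (13.1 and 13.8 CPM, log2 0.07) and Hsf2 (14.2 and 13.4 CPM, log2 -0.09) had intervals that included 0. In subcluster 4, where Hspb1 stood at 21.9 and 107 CPM (log2 2.29) and Bag3 at 46.7 and 90.5 CPM (log2 0.95), the 19 genes of this list tested had a median log2 ratio of 0.02, with 10 higher and 9 lower.

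Of 7 genes of the CCT chaperonin, which folds actin and tubulin, 0 passed 1.5-fold in macrophage-like cells and the median was -0.12. Cct3 (log2 -0.31), Cct8 (-0.25) and Cct2 (-0.24) had the largest ratios in size. Of 11 mitochondrial chaperone and protease genes 0 passed 1.5-fold, with a median of -0.05, and the largest in size were Trap1 (-0.44), Tomm70a (-0.18) and Dnaja3 (-0.16). Of 10 proliferation genes 0 passed 1.5-fold, with a median of -0.04, led by Mcm2 (-0.48), Mcm5 (-0.48) and Tyms (-0.30). Of 18 immediate-early genes, which tissue digestion can also raise, 4 were more than 1.5-fold higher (4.74% of all genes tested) and 0 lower (2.26%), with a median of 0.09, led by Nr4a1 (0.68), Ier2 (0.67) and Klf4 (0.66). The other was Fosl2 (0.63), named after its value was seen, as were Btg2 (-0.53), Fos (-0.46) and Jun (-0.43), which were lower. In subcluster 4, where the HSP70 pair was higher, 15 of the 18 were higher, 4 of them by more than 1.5-fold (7.32% of all genes tested), and the sum stood at a log2 ratio of 0.15. In subcluster 7, where the pair was lowest in ratio, 7 were more than 1.5-fold lower (4.63%) and 1 higher (5.35%), with a sum at -0.29. In subcluster 3 the pair was lower (-0.85) and the sum higher (0.14), with 2 genes more than 1.5-fold higher (5.81%) and 0 lower (4.77%). Subclusters 2 and 5, also with a lower pair, had 7 (4.25%) and 5 (2.76%) genes more than 1.5-fold higher. In both, 0 were lower (4.33% and 2.81%), and the sums stood at 0.05 and -0.01. Subclusters 1 and 6 had 2 (4.85%) and 3 (4.37%) higher and 4 (3.14%) and 1 (4.73%) lower, with both sums at -0.13. Whether digestion bears on the chaperone ratios was not tested.

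Of 18 genes for endoplasmic reticulum chaperones and the unfolded protein response, 1 was more than 1.5-fold higher in macrophage-like cells, Ddit3 (14.5 and 22.2 CPM, log2 0.61), as were 4.74% of all genes tested, and 0 were lower (2.26%), with a median of -0.18. Atf4 (log2 0.41) and Pdia3 (log2 -0.36) followed in size. The sum of the list was higher with telmisartan in subcluster 4, at 5215 and 6967 CPM, and lower in the other 6. In subcluster 4, 7 of the 18 were more than 1.5-fold higher and 0 lower, against 7.32% and 3.22% of 5179 genes tested there, and Atf4 stood at 184 and 368 CPM (log2 1.00). Hspa5, chosen after its values were seen, stood there at 1419 and 2201 CPM (log2 0.63). The sum of the CCT list was lower there, at 801 and 661 CPM (log2 -0.28, -0.38 to -0.18). All 7 of its genes were lower, and 1, Cct3, was more than 1.5-fold lower, against 3.22% of all genes tested.

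Likeness to the chaperone genes was measured over 23 sums of a cluster and group with at least 30 cells, which share 1 capture and 2 pools and are a description only. The sum of Hspa1a, Hspa1b, Hsph1 and Dnajb1 was followed most closely by Rnf181 (r = 0.83), Plekha5, Tap2, Zbtb46, Dpp4, Fchsd2, Psmb9, Kat6a, Limd1 and Ttc9c (r = 0.73). Zbtb46 and Dpp4 mark dendritic cells, the class with the highest Hspa1a and Hspa1b. The sum of Hspd1 and Hspe1 was followed by Eef1b2 (r = 0.96), Serbp1, Cacybp, Atp5b, Rpl14, Btf3, Rpl3, Snrpe, Psma3 and Rps18 (r = 0.94), among them genes of the ribosome and of translation elongation. Among the 10 genes, Hsph1 followed Hsp90ab1 (r = 0.86) more closely than it followed Hspa1a (r = 0.53), and Hspa1a followed Hspa1b at r = 0.81.

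The cells that the quality limits removed held the chaperone genes at other levels. Among 2623 control and 4433 telmisartan cells with over 20% mitochondrial UMIs, the 10 genes stood at 2853 and 3123 CPM and the HSP70 pair at 223 and 179 CPM. CPM divides by all UMIs, mitochondrial ones among them, so a high mitochondrial share by itself lowers the CPM of other genes. The ratio of the 10 genes there, 0.13, had the other sign from that in all kept cells, -0.04. The pair was lower with telmisartan in both. Among 74 control and 16 telmisartan cells with over 5000 genes, the 10 genes stood at 7189 and 7897 CPM.

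Several of the genes cannot be counted apart with confidence. Over 75-base stretches of transcript, 54.2% of those of Hspa1a and 55.8% of those of Hspa1b occurred in another gene, mostly in each other, so that the division between the 2 is uncertain and their sum is firmer. Other annotated genes shared 42.8% of Hsp90aa1, 32.8% of Hspa8, 29.6% of Hspd1, 11.9% of Hspe1 and 10.4% of Dnaja1 stretches. The share was 0.537% for Hsp90ab1 and 0 for Hsph1 and Dnajb1. In the GRCm38 assembly, Hspa1a (chr17:34969190-34972156) and Hspa1b (chr17:34956436-34959238) lie on the minus strand with starts 12918 bases apart, and Hspa1a overlaps Gm20481 on the other strand. Hspd1 (chr1:55077835-55088243, minus strand) and Hspe1 (chr1:55088132-55091307, plus strand) overlap head to head with starts 111 bases apart. Hspa8 (chr9:40800984-40810087) holds the small nucleolar RNA genes Snord14c, Snord14d and Snord14e.

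Heat shock factors bind inverted repeats of GAA, and RefSeq promoter records of 300 bases on GRCm38.p6 were searched for them. Of 32851 promoter records, counted 1 by 1, 7.86% held GAANNTTC, 8.52% held TTCNNGAA and 0.603% held 3 alternating units in a row on either strand. The set had 12 records for 7 genes, several for some. A run of 3 units was held by both records of Hsph1, 1 of 2 of Hspd1 and the only one of Hspe1. The Hsph1 records overlap and hold the same match, which lies after the gene start. The Hspd1 record at the gene start given above (chr1:55088194-55088493) held no match, and the other holds the same stretch as the Hspe1 record, read from the opposite strand. Of the genes without a run, Hspa1a and Hspa1b held GAANNTTC in their only record and Dnaja1 in 1 of 3, and the 2 records of Dnajb1 held neither repeat. A match describes the sequence and was not tested for binding. In the records printed here, 1 for each gene and with a match where a gene had one, read on the strand of the gene, capitals mark the matches.

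Hspa1a (chr17:34972107-34972406, minus strand): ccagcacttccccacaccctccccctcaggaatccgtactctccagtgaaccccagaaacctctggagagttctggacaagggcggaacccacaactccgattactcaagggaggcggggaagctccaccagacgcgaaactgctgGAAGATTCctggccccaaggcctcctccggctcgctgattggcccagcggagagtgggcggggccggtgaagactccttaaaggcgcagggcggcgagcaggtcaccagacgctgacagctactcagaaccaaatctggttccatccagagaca

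Hspa1b (chr17:34959189-34959488, minus strand): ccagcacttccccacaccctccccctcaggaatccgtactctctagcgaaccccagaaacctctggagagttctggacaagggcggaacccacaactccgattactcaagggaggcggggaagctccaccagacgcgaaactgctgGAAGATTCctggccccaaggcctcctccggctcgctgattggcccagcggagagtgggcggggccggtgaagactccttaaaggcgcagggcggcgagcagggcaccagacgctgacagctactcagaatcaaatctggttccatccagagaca

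Hsph1 (chr5:149636287-149636586, minus strand): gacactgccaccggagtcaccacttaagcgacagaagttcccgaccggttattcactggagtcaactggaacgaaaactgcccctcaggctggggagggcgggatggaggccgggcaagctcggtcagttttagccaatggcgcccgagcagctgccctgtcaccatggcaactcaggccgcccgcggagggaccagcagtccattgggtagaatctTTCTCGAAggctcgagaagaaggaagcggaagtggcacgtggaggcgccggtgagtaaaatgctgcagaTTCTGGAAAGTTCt

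Dnajb1 (chr8:83607925-83608224, plus strand): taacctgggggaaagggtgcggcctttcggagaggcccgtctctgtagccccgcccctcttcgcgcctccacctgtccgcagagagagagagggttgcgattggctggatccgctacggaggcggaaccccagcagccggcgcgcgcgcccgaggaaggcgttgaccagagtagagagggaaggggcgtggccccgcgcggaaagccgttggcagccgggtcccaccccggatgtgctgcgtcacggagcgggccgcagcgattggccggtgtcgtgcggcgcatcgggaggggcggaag

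Dnaja1 (chr4:40722218-40722517, plus strand): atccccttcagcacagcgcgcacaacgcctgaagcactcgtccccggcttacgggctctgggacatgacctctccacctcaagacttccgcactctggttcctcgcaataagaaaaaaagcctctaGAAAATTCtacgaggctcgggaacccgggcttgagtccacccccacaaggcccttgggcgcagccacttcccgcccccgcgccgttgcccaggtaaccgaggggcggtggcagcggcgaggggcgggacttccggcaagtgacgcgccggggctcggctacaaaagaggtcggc

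Hspd1 (chr1:55087883-55088182, minus strand): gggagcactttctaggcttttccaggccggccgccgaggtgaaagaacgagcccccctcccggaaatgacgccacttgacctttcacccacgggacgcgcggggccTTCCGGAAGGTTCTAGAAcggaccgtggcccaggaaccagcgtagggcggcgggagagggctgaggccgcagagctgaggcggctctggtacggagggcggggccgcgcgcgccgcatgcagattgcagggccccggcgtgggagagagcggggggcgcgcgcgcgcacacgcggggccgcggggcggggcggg

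Hspe1 (chr1:55087898-55088197, plus strand): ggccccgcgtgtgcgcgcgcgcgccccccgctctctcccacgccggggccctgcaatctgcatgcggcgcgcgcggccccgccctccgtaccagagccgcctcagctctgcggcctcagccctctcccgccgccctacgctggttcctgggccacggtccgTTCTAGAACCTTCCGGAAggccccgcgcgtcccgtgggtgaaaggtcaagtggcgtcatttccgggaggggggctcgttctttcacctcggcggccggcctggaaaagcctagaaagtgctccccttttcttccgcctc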

How the data were processed

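The values are counts deposited by the authors: UMIs per gene and putative cell from the BD Rhapsody pipeline version 1.11 after correction of UMI errors, aligned to GRCm38 and counted on GENCODE M19 genes, and Sample Tag read counts per cell, which the authors deposited without normalization. Gene positions came from GENCODE M21. The table held 20726 putative cells. A cell was given a group when 1 tag held at least 75% of at least 10 tag reads (Sample Tag 1 control, 2 telmisartan), and cells under 150 or over 5000 genes, or over 20% mitochondrial, were dropped. The 942 cells with the highest Scrublet scores (scanpy 1.11.5), 9.51% of those within limits and in a group, were removed.

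Clusters used Seurat 5.3.0 in R 4.3.3 with 2000 variable genes less the chaperone genes, 30 principal components, 20 neighbors and a resolution of 0.5, and the macrophage-like subclusters a resolution of 0.4. A cluster took a class when at least 3 of its markers were at least 4-fold higher than in the other cells, and otherwise was macrophage-like. UMIs were summed by class and group and divided by the total (CPM). Intervals are exact Poisson for levels, exact conditional binomial for ratios and Clopper-Pearson for shares, at 95%, and ratio and thinning code was tested on simulated data. The precision follows from the UMIs of each gene, which are given where few.

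Genes outside the 10 were named by a rule: Hsf1 and Hsf2, the 3 genes of each list with the largest ratio in size among those with at least 200 UMIs in macrophage-like cells, and the 10 genes most like each chaperone sum, out of 8635 with at least 500 UMIs. The 10 genes and the lists were chosen with earlier results of these data known. Alternatives covered the tag share, quality limits, doublets, resolution, variable genes, scaling (TMM of edgeR 4.0.16 among them), thinning, subcluster weights, low-depth clusters and the UMI minimum. Python 3.11.15, numpy 2.4.6, scipy 1.17.1, pandas 2.3.3 and matplotlib 3.10.9 were used. Cct6a has no column under that name. Cells split between tags were left out. The count of HSF1 target genes past 1.5-fold within subcluster 4 is not reported here.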

Additional observations from a re-analysis of the deposited data

Results flagged for a closer look

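Several chaperone genes had telmisartan to control ratios whose intervals lay above 0 in 1 cell group and below 0 in another. With 1 pool per group, the difference was not tested for any of them. Among classes, Hsph1 stood at a log2 ratio of 0.84 in T-like cells and -0.29 in macrophage-like cells. Among macrophage subclusters, Hspa1a stood at 1.44 in subcluster 4 and -1.53 in subcluster 7, and Hspa1b at 1.25 and -2.59. Hsph1 stood at 0.48 in subcluster 4 and -0.72 in subcluster 2, Dnaja1 at 0.66 in subcluster 4 and -0.21 in subcluster 7, and Hsp90ab1 at 0.13 in subcluster 4 and -0.19 in subcluster 2. Between the 2 T-like clusters, Hspe1 stood at -0.48 in cluster 9 and 0.91 in cluster 13, and Hsp90ab1 at -0.16 and 0.76. Within each of these 3 comparisons, the highest and lowest ratios with intervals that excluded 0 are given for each such gene.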

How the results depend on the processing

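The log2 ratio of the 10 genes together in macrophage-like cells (-0.05) was -0.031 without doublet removal, -0.017 as a mean of UMIs per 10000 in each cell, -0.022 as a difference of mean ln values, -0.46 unscaled, -0.058 with TMM factors, -0.025 after thinning and 0.010 with equal subcluster weights. The number of genes more than 1.5-fold lower, 0, was 1 without the low-depth clusters 4 and 5. Cluster 4 held 89.7% of the cells of subcluster 3, where the HSP70 pair was lower with telmisartan. Cluster 5 held 84.2% of those of subcluster 4, where the pair was higher. How far depth or the loss of these subclusters bears on the count was not tested. The count was 5 unscaled, a setting that by construction lowers the ratios of all genes alike, since telmisartan cells held fewer UMIs. Hspa1b, Hsph1, Hsp90ab1, Hspd1 and Hspe1 kept ratios below 0 under all 15 settings, which were run for macrophage-like cells and not for the other classes. Among 11 settings chosen after seeing the data, the HSP70 pair kept its sign in subclusters 2 to 7, and in subcluster 1 it turned from -0.59 to 0.080 with the chaperone genes among the variable genes. The share of genes past 1.5-fold was 6.09% higher and 2.99% lower at a minimum of 50 UMIs, and 3.59% and 1.10% at 500.

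With 1 pool of 5 mice per group, a difference between pools and an effect of telmisartan cannot be told apart. Telmisartan cells were shallower, most sums rest on macrophages, and T-like and neutrophil-like cells were few. The subclusters were defined in these same cells, so a difference within a subcluster and a difference in which cells fall into it cannot be told apart.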
